A study of Mus musculus with 15 samples.

Results

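The 10 genes described here belong to the WNT pathway: Lgr4, Lgr5, Axin2, Frat2, Tcf7, Tcf7l2, Rnf43, Znrf3, Nkd1 and Ascl2. Frat2 encodes a protein that binds GSK3, and the others encode receptors, feedback inhibitors or nuclear factors. The genes were taken by name, as listed WNT pathway genes, out of 34554 genes and added sequences in the files. All 10 were listed, and 9 passed the filter on low counts. Ascl2 did not pass and has levels but no test. Ribosome-depleted RNA was sequenced from normal mouse organoids of the pancreatic duct, which are epithelial spheres cultured in Matrigel. Lines A217, A220 and A225 carry the alleles for doxycycline-inducible synthesis of CA19-9, a sialylated glycan that mice do not make. Lines A218 and A223 are labelled as genetic negatives because they miss 1 of the required alleles; the labels do not name it. Each of the 5 lines had 1 library without doxycycline (0 h), 1 with 4 h and 1 with 24 h of it, at 1 µg/ml. This gave 6 groups and 15 libraries, 1 for each line and time. All cultures were harvested at the same moment, and their medium had been renewed 24 h earlier.

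All groups share a medium with R-spondin 1 conditioned medium, EGF, FGF10, gastrin, Noggin, nicotinamide, N-acetylcysteine and A 83-01, an inhibitor of TGF-β type receptors. The labels list no added WNT ligand. How many animals the lines came from is not in the labels, nor do they say which promoter drives the inducible alleles, or whether a line is a clone. P-values therefore speak for these lines only. They measure the spread between lines or, where each line is compared with itself, the spread of the lines' changes. Summed counts lay between 47915632 and 59411540 per library. Of 13 duct markers, 12 had a mean of at least 1 TPM (transcripts per 1000000, a level per transcript length), and their summed level was 10171 to 16778 TPM. Acinar markers summed to 2.08 to 3.8 TPM, endocrine markers to 0.0287 to 0.419 TPM and fibroblast markers to 1.86 to 5.36 TPM, with no more than 1 marker of each list at 1 TPM or above. Of 8 markers of intestinal and gastric epithelium, 3 (Vil1, Tff2 and Cdx2) had a mean of at least 1 TPM, and the list summed to 126 to 188 TPM.

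In the canonical WNT pathway, a WNT ligand binds a Frizzled receptor with LRP5 or LRP6, which stops the AXIN, APC and GSK3 complex from marking β-catenin for destruction. β-catenin then enters the nucleus and activates genes bound by factors of the TCF and LEF family. RNF43 and ZNRF3 are membrane ubiquitin ligases that remove Frizzled receptors from the surface, and R-spondin, held by LGR4 or LGR5, takes these ligases away. AXIN2, NKD1, RNF43 and ZNRF3 are made in response to the pathway and dampen it. R-spondin is a standard component of organoid media, and LGR5 marks stem cells of the gut and cycling cells of cultured pancreatic ducts.

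The TCF and LEF factors read a short core that was searched as CTTTGA or CTTTGT on either strand, so that TCAAAG and ACAAAG also counted; neither overlaps another motif searched here. RefSeq start sites of GRCm38.p6 were matched for 8 of the 10 genes, in 11 windows of 250 bases before to 50 after a start. Lgr5 and Znrf3 were not matched. The core stood in 1 of the 11 windows, against 31.2% of all 32851 windows of that length. For some of the genes that the results turn on, 1 window is shown, 5′ to 3′ on the gene's strand, up to the base before the start. Capitals mark the core, and for Tcf7l2 the window with the core is shown.
Rnf43, first start, chr11:87662837-87663086, plus strand: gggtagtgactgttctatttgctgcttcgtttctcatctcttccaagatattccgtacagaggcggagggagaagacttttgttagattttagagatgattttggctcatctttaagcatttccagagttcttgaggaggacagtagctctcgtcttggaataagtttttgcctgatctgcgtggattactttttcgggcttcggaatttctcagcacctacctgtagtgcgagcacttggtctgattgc
Axin2, chr11:108920099-108920348, plus strand: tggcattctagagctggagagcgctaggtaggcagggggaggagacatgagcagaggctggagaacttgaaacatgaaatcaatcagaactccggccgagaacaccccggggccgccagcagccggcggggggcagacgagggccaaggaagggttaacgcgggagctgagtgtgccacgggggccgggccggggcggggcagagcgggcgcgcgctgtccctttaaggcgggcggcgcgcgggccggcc
Frat2, chr19:41848133-41848382, minus strand: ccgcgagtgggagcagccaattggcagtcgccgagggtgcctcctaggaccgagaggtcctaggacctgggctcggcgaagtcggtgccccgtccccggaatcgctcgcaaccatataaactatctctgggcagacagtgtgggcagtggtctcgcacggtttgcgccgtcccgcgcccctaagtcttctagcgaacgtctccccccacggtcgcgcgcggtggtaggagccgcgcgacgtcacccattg
Tcf7l2, internal start, chr19:55895071-55895320, plus strand: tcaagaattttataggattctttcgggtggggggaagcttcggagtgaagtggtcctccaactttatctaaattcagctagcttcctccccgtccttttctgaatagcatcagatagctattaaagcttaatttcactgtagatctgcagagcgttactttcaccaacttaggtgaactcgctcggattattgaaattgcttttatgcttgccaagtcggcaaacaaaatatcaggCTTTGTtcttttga
The match in Tcf7l2 lies 14 bases before a start inside the gene. The bases that follow that start were found in none of the gene's annotated transcripts. The window at the other matched start of Tcf7l2 (chr19:55741560-55741809, 72.8% G and C) held no core, and a transcript holds the bases after it. A match is a description of letters and not a bound site, and a window without one says nothing about binding elsewhere in the gene. The share of G and C differed among these 4 windows, from 40.8% at the internal start of Tcf7l2 to 69.2% at Axin2.

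Among the 10 genes the receptor Lgr4 was the most abundant, and the Wnt-responsive stem cell gene Lgr5 was far below it. Lgr4 (chromosome 2, 109917647 to 110014257, plus strand, GRCm38) had 44.2 ± 3.23 TPM (SD, n = 15 libraries), and Lgr5 (chromosome 10, 115450311 to 115587780, minus strand) had 1.99 ± 0.689 TPM. The ratio of Lgr4 to Lgr5, on the TPM scale, was 13 to 40.5 with a median of 22.2. The ubiquitin ligases followed Lgr4: Rnf43 (chromosome 11, 87662722 to 87735539, plus strand) had 26.6 ± 3.37 TPM and Znrf3 (chromosome 11, 5276324 to 5444847, minus strand) had 7.83 ± 0.916 TPM. Rnf43 exceeded Znrf3 by 2.92 to 3.89 times, with a median of 3.39. These 4 genes encode the surface machinery that R-spondin acts on, and in every library 3 of them lay above all of the other members.

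The order went on with Tcf7l2 at 5.56 ± 0.881 TPM (SD, n = 15 libraries), Frat2 at 3.92 ± 1.02 TPM and Axin2 at 3.85 ± 0.735 TPM. Lgr5 and Tcf7, at 1.56 ± 0.371 TPM, came next. Nkd1 had 0.0779 ± 0.0514 TPM and Ascl2 0.0645 ± 0.0553 TPM. Neighbours in the order were apart over all libraries for Lgr4 and Rnf43, for Rnf43 and Znrf3, and for Tcf7 and Nkd1. The ranges of all other neighbours overlapped: Frat2 lay above Axin2 in 9 of 15 libraries, Lgr5 above Tcf7 in 12 and Nkd1 above Ascl2 in 10. In CPM (counts per 1000000, scaled for library composition) divided by effective length, the order was the same. That length was weighted by TPM, so both scales are tied and this is no separate check.

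**Figure D1:**
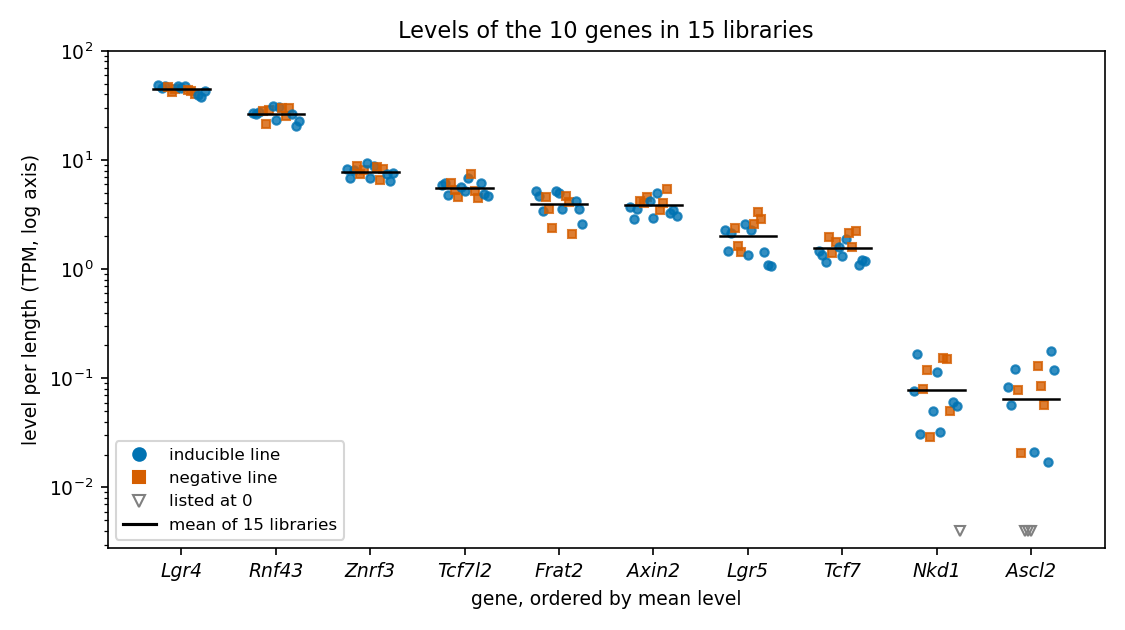
Level of each of the 10 genes in TPM (log axis), ordered by mean, with 1 point for each of 15 libraries, circles for inducible and squares for negative lines and a bar at the mean. Lgr4 and Rnf43 stand apart from all others, and Nkd1 and Ascl2 lie below 0.2 TPM, with open triangles for libraries listed at 0.

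Before doxycycline the inducible and negative lines did not differ detectably in any of the 9 tested genes. Lgr4 had 127, 157 and 161 CPM in the inducible lines at 0 h and 142 and 151 in the negative lines. Rnf43 had 58.5, 61.2 and 70 CPM against 61.9 and 63.1, and Znrf3 27.3, 31 and 33.1 CPM against 30.9 and 32.6. The negative lines lay within the range of the inducible lines for these 3 genes. With edgeR, 0 of 16446 features passed an adjusted p of 0.05 in this comparison (0%), 588 had an unadjusted p below 0.05, and DESeq2 called 6 features, none of them a member. Of the members, Tcf7 alone had an unadjusted p below 0.05 (0.0303 by edgeR, adjusted p = 1): it had 1.51, 2.22 and 2.29 CPM in the inducible lines and 2.72 and 3.15 in the negative lines, without overlap, a log2 difference of -0.55 ± 0.22 (SE). Tcf7 encodes TCF1, a nuclear partner of β-catenin.

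After 4 h of doxycycline the membrane ligase Znrf3 was lower in all 5 lines, and Rnf43 was lower in all 5 as well. Znrf3 had 31, 32.6, 33.1, 30.9 and 27.3 CPM at 0 h in lines A217, A218, A220, A223 and A225, in that order. At 4 h the same lines had 24, 26.8, 24.5, 23.3 and 23.3 CPM, so that the highest 4 h value lay below the lowest 0 h value. The log2 change over all lines was -0.34 ± 0.066 (SE, n = 5 lines), so that the level fell by 21.1%, with an adjusted p of 0.0325 by edgeR. In bulk RNA, fewer cells that express a gene and less RNA per cell cannot be told apart. By edgeR without pairing, Znrf3 was the only member of 9 tested that passed, beside 0.912% of all features. DESeq2 called Znrf3 and Rnf43, among 550 features called.

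Rnf43, the other ligase, had 61.2, 61.9, 70, 63.1 and 58.5 CPM at 0 h and 55.4, 48.6, 51.6, 54.1 and 43.9 CPM at 4 h, in the same order of lines. Here too all 5 lines were lower and the times did not overlap in CPM. In TPM all 5 lines were lower as well, but the times just overlapped, with 26.4 in A217 at 4 h and 26.3 in A225 at 0 h. The log2 change of Rnf43 was -0.31 ± 0.087 (SE, n = 5 lines) with an adjusted p of 0.135 by edgeR, and 0.0202 by DESeq2. With the line as a replicate block, which compares each line with itself, edgeR gave Rnf43 an adjusted p of 0.00143 and Znrf3 0.000492. Tcf7l2 (chromosome 19, 55741820 to 55933654, plus strand), a nuclear factor that binds β-catenin and for which TCF4 is the protein name, passed in that fit as well. It had 9.03, 10.1, 11.6, 12.5 and 9.06 CPM at 0 h and 8.85, 8.83, 8.57, 9.02 and 7.74 CPM at 4 h, lower in 5 of 5 lines and just without overlap. In TPM, Tcf7l2 was higher at 4 h in A217 alone (6.12 against 5.95), and its times overlapped. Its log2 change was -0.29 ± 0.12 (SE, n = 5 lines), with an adjusted p of 0.343 by edgeR and 0.0422 with the block. The block thus called 3 of 9 members, beside 8.68% of all features.

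How far these calls depend on single libraries differed. Without pairing, the Znrf3 call held when A218 at 4 h or A225 at 0 h was left out, and was lost when any 1 of the other 8 libraries was left out, with a log2 change of -0.40 to -0.30 and adjusted p up to 0.177 by edgeR. Fitting only the groups compared also ended it, with an adjusted p of 0.0512 by edgeR. With the block, chosen together with leaving out libraries after the data were seen, Znrf3 and Rnf43 stayed called in 10 of 10 cases, with adjusted p up to 0.00698 and 0.018 by edgeR. Tcf7l2 stayed called in 2 of 10 cases, without A217 at 4 h or A218 at 4 h, and reached an adjusted p of 0.275 in the others.

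**Figure D2:**
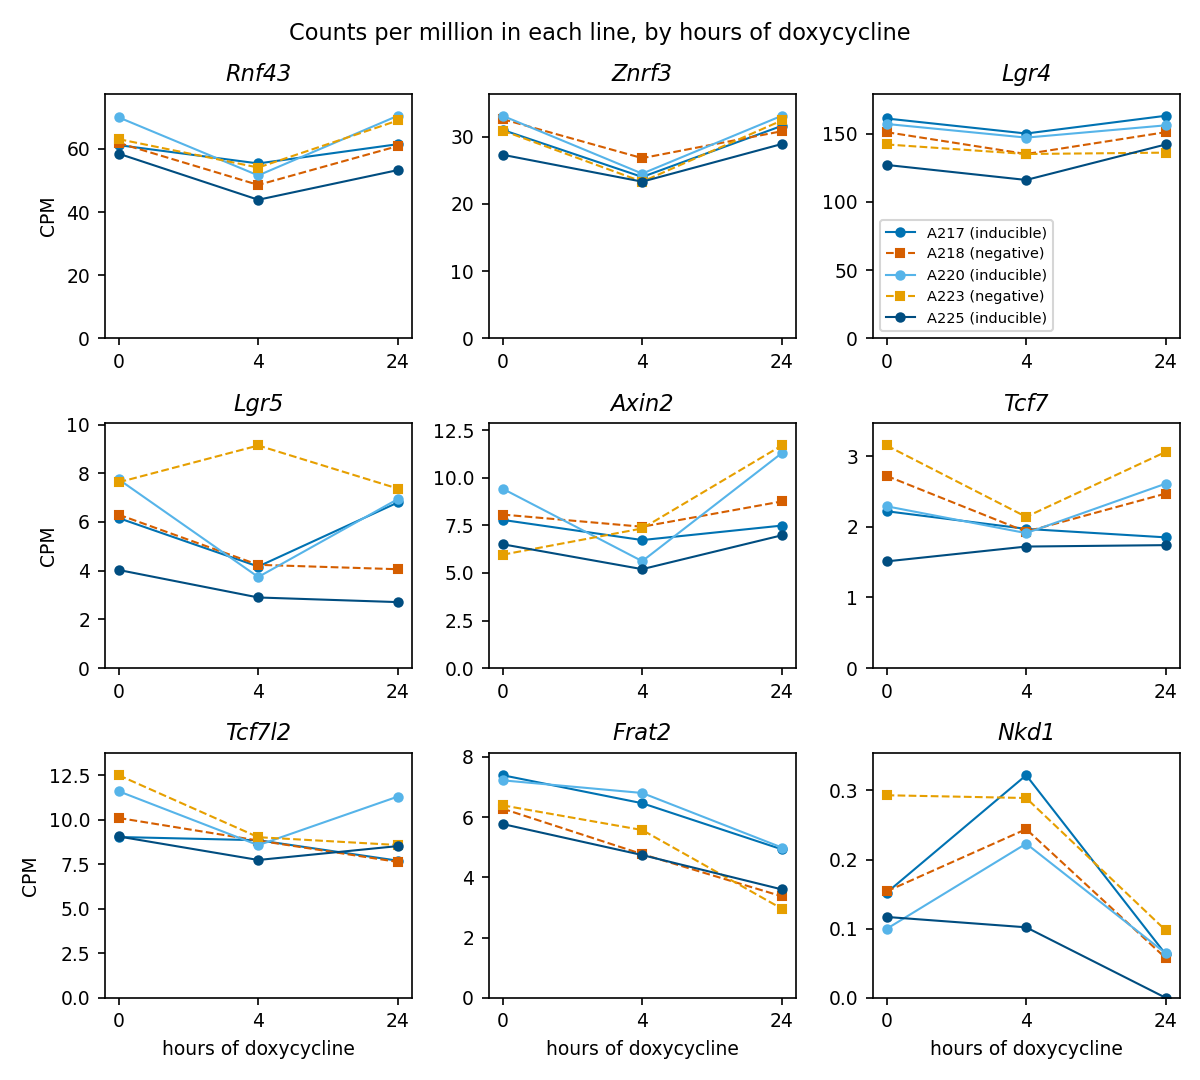
CPM of the 9 tested genes in each line at 0, 4 and 24 h of doxycycline, 1 panel per gene with the axis starting at 0, solid lines and circles for inducible and dashed lines and squares for negative lines. Rnf43 and Znrf3 dip at 4 h in every line and are back at 24 h, and Frat2 is lowest at 24 h in every line.

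The 4 h values of both genotypes can be set side by side. Znrf3 had a log2 change of -0.35 ± 0.084 (SE, n = 3 lines) in the inducible and -0.34 ± 0.10 (SE, n = 2 lines) in the negative lines. Rnf43 had -0.33 ± 0.11 and -0.28 ± 0.13. Within 1 genotype no member passed by edgeR without the block: the adjusted p of Znrf3 was 0.208 in the inducible and 0.469 in the negative lines, beside 0.298% and 0.122% of features called. With the block, 2 members passed in the inducible lines (Znrf3, adjusted p = 0.00574, and Rnf43, 0.00896, beside 3.05% of features by edgeR), and Znrf3 in the negative lines (0.0266, beside 2.06%). These calls were less firm: Znrf3 in the inducible lines was lost without A220 at 0 h or 4 h (adjusted p up to 0.064 by edgeR), Rnf43 also without A225 at 0 h (up to 0.0911), and Znrf3 in the negative lines stayed only without A218 at 4 h (up to 0.32 otherwise).

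The difference of the 4 h responses between genotypes was itself tested. For Znrf3 it was -0.01 ± 0.13 (SE) on the log2 scale, with an adjusted p of 1 by edgeR. No member passed that test with or without the block, beside 0.0122% and 0.0182% of features. Lgr5 and Axin2 showed the most uneven values between genotypes among the members above 1 TPM, -0.67 ± 0.60 and -0.51 ± 0.32 (SE), with unadjusted p of 0.282 and 0.138 by edgeR.

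Lgr4 and Lgr5, the R-spondin receptors, did not pass at 4 h. Lgr4 had 161, 151, 157, 142 and 127 CPM at 0 h and 150, 135, 147, 135 and 116 CPM at 4 h in lines A217, A218, A220, A223 and A225. It was lower by a little in 5 of 5 lines, and the times overlapped. The log2 change was -0.11 ± 0.081 (SE, n = 5 lines), with an adjusted p of 0.69 by edgeR and 0.0623 with the block. Lgr5 had 6.16, 6.3, 7.75, 7.63 and 4.03 CPM at 0 h and 4.17, 4.24, 3.74, 9.14 and 2.9 CPM at 4 h. It was lower in 4 lines and higher in the negative line A223, whose 4 h value was the highest of all 15 libraries. Over all lines the log2 change of Lgr5 was -0.39 ± 0.30 (adjusted p = 0.712 by edgeR; 0.0834 with the block). In the 3 inducible lines, 4.03 to 7.75 CPM at 0 h stood against 2.9 to 4.17 CPM at 4 h, a log2 change of -0.73 ± 0.38 (SE, n = 3 lines) that missed the threshold by edgeR (adjusted p = 0.731; 0.0548 with the block). Lgr5 overlaps A930009A15Rik on the opposite strand, at a mean of 0.0143 CPM.

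The feedback gene Axin2, often used as a readout of WNT activity, and Tcf7 did not pass at 4 h either. Axin2 (chromosome 11, 108920349 to 108950783, plus strand) had 7.79, 8.07, 9.43, 5.96 and 6.51 CPM at 0 h and 6.73, 7.43, 5.62, 7.34 and 5.2 CPM at 4 h. It was lower in 4 lines, the exception again being A223, and its log2 change was -0.18 ± 0.16 (SE, n = 5 lines; adjusted p = 0.772 by edgeR). In TPM, Axin2 was higher at 4 h in A225 as well (3.45 against 3.28). Tcf7 (chromosome 11, 52252371 to 52283014, minus strand) had 2.22, 2.72, 2.29, 3.15 and 1.51 CPM at 0 h and 1.97, 1.93, 1.91, 2.14 and 1.72 CPM at 4 h. The 5 lines lay closer together at 4 h than at 0 h, and A225, the lowest at 0 h, was the line that was higher. The log2 change of Tcf7 was -0.31 ± 0.16 (adjusted p = 0.49 by edgeR). Of the 9 tested members, 8 had a negative log2 change at 4 h over all lines, with a median of -0.29, beside a median of 0.00 over all features. The exception was Nkd1.

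**Figure D3:**
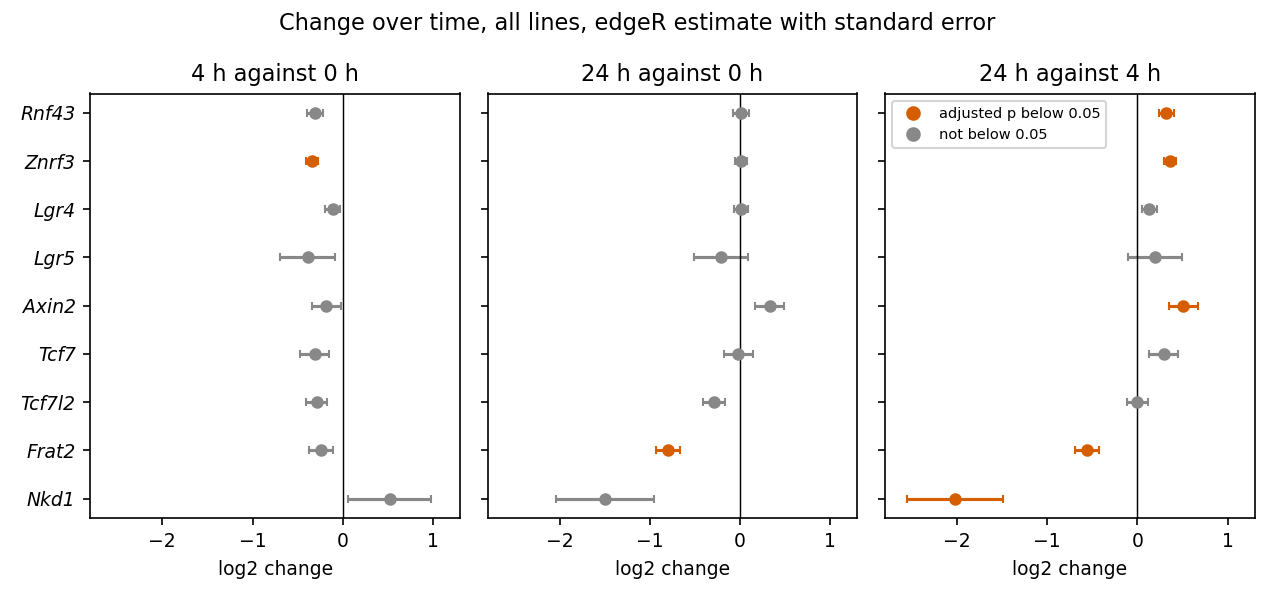
Log2 change of the 9 tested genes over all 5 lines, edgeR estimate with its standard error, for 4 h against 0 h, 24 h against 0 h and 24 h against 4 h, in orange where the adjusted p was below 0.05. At 4 h 8 of 9 points lie left of 0 with Znrf3 called, and at 24 h Frat2 is the called gene.

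At 24 h the ligases were back at their starting level, while Frat2 fell. Frat2 (chromosome 19, 41845972 to 41848132, minus strand) is a single-exon gene whose protein binds GSK3 and keeps it from AXIN, which favours β-catenin. It had 7.39, 6.28, 7.22, 6.39 and 5.77 CPM at 0 h in lines A217, A218, A220, A223 and A225, 6.46, 4.77, 6.8, 5.57 and 4.74 CPM at 4 h, and 4.93, 3.37, 4.99, 2.96 and 3.6 CPM at 24 h. Each line went down at both steps, and no 24 h value reached a 0 h value. The log2 change at 24 h was -0.80 ± 0.13 (SE, n = 5 lines), 1.74-fold lower, with an adjusted p of 0.00209 by edgeR. Leaving out any 1 of the 10 libraries kept this call, with log2 changes of -0.86 to -0.74. Frat2 was the only member of 9 called at 24 h by edgeR without pairing, where 18.7% of all features were called, so a count of 1 is no more than the background share would give.

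By genotype, the change of Frat2 was -0.59 ± 0.17 (SE, n = 3 lines) in the inducible lines and -1.0 ± 0.21 (SE, n = 2 lines) in the negative lines. The adjusted p by edgeR was 0.0618 in the inducible lines, where 0 of 9 members and 4.93% of features were called, and 0.0223 in the negative lines, where 1 of 9 members and 3.8% of features were called. With the block these became 0.000733 and 0.000114, beside 24.3% and 22.5% of features by edgeR. The call in the negative lines was lost without A218 or A223 at either time (adjusted p up to 0.168 by edgeR, with 1 library left in an arm that is assumed to vary like the others), and stayed in 4 of 4 cases with the block. The difference between the genotypes' responses was 0.41 ± 0.27 (SE; adjusted p = 1 by edgeR, 0.56 with the block), so the larger fall in the negative lines did not pass. No member passed the test of that difference at 24 h, beside 0.0122% of features without and 0.0243% with the block.

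Frat1, the paralog of Frat2, lies next to it on chromosome 19 (41829970 to 41832583, plus strand). It was lower at 24 h in 5 of 5 lines, 4.09 to 7.49 CPM against 6.36 to 9.71 CPM at 0 h, and its log2 change was -0.61 ± 0.18 (SE, n = 5 lines; adjusted p = 0.0338 by edgeR, 2.85e-05 with the block). Without the block, that call held when A217 at 24 h or A225 at 0 h was left out, and not without any 1 of the other 8 libraries (adjusted p up to 0.105 by edgeR). At 4 h Frat1 had a log2 change of 0.02 ± 0.18. The transcripts of Frat2 and Frat1 share 163 words of 31 bases, out of 2129 in Frat2, and 8.41% of the words of Frat2 occur in another gene. Reads from such stretches may have been split between the paralogs, so their values are not fully independent.

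Rnf43 had 61.5, 60.9, 70.5, 69 and 53.3 CPM at 24 h and Znrf3 31.6, 30.8, 33.1, 32.4 and 28.9 CPM, in the same order of lines. Against 0 h the log2 change was 0.01 ± 0.086 for Rnf43 and 0.01 ± 0.066 for Znrf3, with 3 lines higher and 2 lower for each. Lgr4, at 163, 151, 156, 136 and 142 CPM, had a change of 0.01 ± 0.081. Lgr5, at 6.8, 4.06, 6.94, 7.37 and 2.71 CPM, had -0.21 ± 0.30 and was lower in 4 lines, and Tcf7, at 1.85, 2.47, 2.61, 3.06 and 1.74 CPM, had -0.02 ± 0.16. None of these 5 genes passed by edgeR, with or without the block (adjusted p of 0.173 to 0.95). Their group ranges at 24 h overlapped those at 0 h.

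Axin2, Tcf7l2 and Nkd1 passed at 24 h when lines were paired. Axin2 had 7.49, 8.76, 11.3, 11.7 and 6.98 CPM at 24 h, higher than at 0 h in 4 of 5 lines and most so in A223. In TPM, Axin2 was lower at 24 h in A217 (3.55 against 3.73) and A225 (3.07 against 3.28), and higher in the other lines. The log2 change was 0.33 ± 0.16 (SE, n = 5 lines; adjusted p = 0.173 by edgeR, 0.0481 with the block), and the paired call was lost without A217 at 0 h or without either library of A220, A223 or A225, with adjusted p up to 0.384 by edgeR and log2 changes of 0.16 to 0.48. Tcf7l2 had 7.7, 7.63, 11.3, 8.58 and 8.52 CPM at 24 h and was lower in 5 of 5 lines. In TPM, Tcf7l2 was higher at 24 h in A220 alone (6.78 against 5.63). Its log2 change was -0.29 ± 0.12 (adjusted p = 0.102 by edgeR, 0.00971 with the block), and the paired call was lost without A223 at 0 h (0.0841). In the negative lines alone Tcf7l2 changed by -0.47 ± 0.18 (adjusted p = 0.159 by edgeR, 0.0132 with the block), and the paired call stayed only without A218 at 0 h (up to 0.184 otherwise). The block called 4 of 9 members over all lines, beside 36.1% of features by edgeR, and the median log2 change of the 9 was -0.02, beside -0.00 over all features.

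Nkd1 (chromosome 8, 88521354 to 88594884, plus strand), whose protein binds Dishevelled and dampens WNT signals, was close to the detection limit. Its estimated counts in lines A217, A218, A220, A223 and A225 were 8, 8, 5, 16 and 7 at 0 h, 17, 12, 11, 15 and 6 at 4 h, and 3, 3, 3, 5 and 0 at 24 h. Every line had its lowest count at 24 h. Summed over lines these are 44, 61 and 14 counts, and the ratio of 24 h to 0 h, scaled for depth, was 0.334 with a 95% exact interval of 0.169 to 0.621 that covers counting error only. The log2 change of Nkd1 at 24 h was -1.50 ± 0.54 (SE, n = 5 lines; adjusted p = 0.0703 by edgeR, 0.031 with the block). The paired call was lost when 7 of the 10 libraries were left out in turn and stayed without A217 at 0 h or either library of A220 (adjusted p up to 0.14 by edgeR). Ascl2 (chromosome 7, 142966829 to 142969264, minus strand), a transcription factor of gut stem cells, had 0 to 10 counts per library and 16, 18 and 16 counts over lines at 0, 4 and 24 h. Its ratio of 24 h to 0 h was 1.05 with an interval of 0.491 to 2.24, so no change was detectable at this depth.

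The return from 4 h to 24 h was compared directly, a comparison chosen after the data were seen. It shares its 4 h and 24 h libraries with the comparisons above. The directions by line given here are in CPM. In TPM, Axin2 was lower at 24 h in A225 alone (3.07 against 3.45 at 4 h), and Lgr4 in A223 alone (40.2 against 43.2 at 4 h). Znrf3 was higher at 24 h in 5 of 5 lines, 28.9 to 33.1 CPM against 23.3 to 26.8 without overlap, with a log2 change of 0.36 ± 0.066 (SE, n = 5 lines; adjusted p = 0.00338 by edgeR), and leaving out any 1 library kept the call. Rnf43 was higher in 5 of 5 lines by 0.32 ± 0.087 (adjusted p = 0.0233 by edgeR), a call lost without A218 at 4 h, A220 at 24 h or A223 at either time (up to 0.111), and held in 10 of 10 cases with the block. Axin2 was higher in 5 of 5 lines by 0.51 ± 0.16 (adjusted p = 0.0411 by edgeR), lost without A218, A220, A223 or A225 at 4 h or A220 or A223 at 24 h (up to 0.18) and when only the groups compared were fitted (0.0524). Frat2 was lower in 5 of 5 lines, with a log2 change of -0.56 ± 0.13 (adjusted p = 0.0127 by edgeR; up to 0.0598 without A223 at 4 or 24 h). Nkd1 changed by -2.02 ± 0.53 (adjusted p = 0.0186 by edgeR; up to 0.0775 without A218 at 24 h or A223 at 4 or 24 h). These were 5 of 9 members, 3 higher and 2 lower, beside 19.5% of all features. With the block Lgr4 joined them, at 0.13 ± 0.034 (SE; adjusted p = 0.00997 by edgeR; up to 0.097 without A218 at 4 or 24 h), higher in 5 of 5 lines, and 6 of 9 members stood beside 37.1% of features.

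Transcripts were looked at for the ligases, also after the data were seen. Znrf3 counts came mostly from 2 coding transcripts, Znrf3-201 with 60% and Znrf3-203 with 39.4% of the gene's counts on average. Znrf3-201 had 4.3 ± 0.178 TPM (SD, n = 5 lines) at 0 h, 3.6 ± 0.341 at 4 h and 4.31 ± 0.222 at 24 h, and Znrf3-203 had 3.82 ± 0.502, 2.87 ± 0.195 and 3.74 ± 0.534 TPM. Both were lower at 4 h in 5 of 5 lines. The transcript of Rnf43 with the most counts, Rnf43-206 with 37.7%, is annotated as a retained intron without a coding sequence. It had 11.8 ± 0.451 TPM (SD, n = 5 lines) at 0 h, 9.78 ± 0.951 at 4 h and 10.8 ± 0.38 at 24 h, lower at 4 h in 5 of 5 lines. The coding transcript Rnf43-209 had 5.45 ± 0.74, 5.75 ± 0.789 and 5.27 ± 1 TPM and was lower at 4 h in 2 of 5 lines, while coding Rnf43-202 had 4.33 ± 1.44, 2.29 ± 1.84 and 5.44 ± 3.01 TPM and was lower in 3. Coding Rnf43-201 and Rnf43-203 were each lower in 4 of 5 lines. Shares among overlapping transcripts are estimates, and no test was made on them.

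The other 104 genes of the pathway, in 8 roles, place these values. Of 19 WNT ligands, 3 had a mean of at least 1 TPM: Wnt7b with 157 TPM, Wnt4 with 34.9 TPM and Wnt7a with 1.08 TPM. None of the 4 R-spondin genes reached 1 TPM, and the highest, Rspo1 and Rspo3, had 0.0734 and 0.0176 TPM. The ligand carrier Wls had 115 TPM and the acyltransferase gene Porcn 16.2 TPM. The receptor genes Ryk and Lrp5 led theirs with 78.1 and 51.1 TPM, 12 of 17 receptor and co-receptor genes had at least 1 TPM, and Ctnnb1, the gene of β-catenin, had 953 TPM. Of 13 secreted or membrane inhibitors, 2 reached 1 TPM, Kremen1 with 16 TPM and Kremen2 with 1.16 TPM. Csnk1a1, Aes, Ctbp1, Ccnd1 and Id2 were the highest of the remaining roles, at 315, 591, 165, 758 and 682 TPM. The nuclear partners Lef1 and Tcf7l1 of the same family as Tcf7 and Tcf7l2, looked at after their values were seen, had 0.129 and 0.0724 TPM.

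At 4 h, 3 of the 75 other pathway genes tested were lower over all lines by edgeR and 0 higher, beside 0.912% of all features called in either direction. The median log2 change of the 75 was -0.06, beside 0.00 over all features. Myc, a growth-promoting transcription factor and WNT target, had 68.5 to 80.7 CPM at 0 h and 51 to 57.2 CPM at 4 h. It fell in 5 of 5 lines without overlap, with a log2 change of -0.51 ± 0.057 (SE, n = 5 lines; adjusted p = 0.000649 by edgeR), and no single library decided this. Id2, an inhibitor of helix-loop-helix factors, changed by -0.34 ± 0.071 (adjusted p = 0.0458 by edgeR; 9e-05 with the block), and Axin1, a scaffold of the destruction complex, by -0.19 ± 0.036 (0.032 by edgeR; 0.00487 with the block). Each was lower in 5 of 5 lines. Without the block the Id2 call held only without A217 at 0 h (up to 0.221 otherwise), and that of Axin1 only without A217 at 4 h or A225 at 0 h (up to 0.172 otherwise). The Axin1 call was also lost without a filter on low counts (adjusted p = 0.0648 by edgeR). By 24 h Myc stood at 61.5 to 72.1 CPM, -0.18 ± 0.057 from 0 h (adjusted p = 0.0451 by edgeR; 0.000878 with the block). With the block 13 of 75 were lower and 1, Wnt4, higher at 4 h, beside 8.68% of all features.

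At 24 h, 6 of the 75 were higher and 5 lower by edgeR, beside 18.7% of all features called, so the count is below the background share. Of the 7 ligands tested, 3 were higher and 1 lower. Wnt4 had 52.3 to 70.6 CPM at 0 h, 69.4 to 95.7 at 4 h and 119 to 172 at 24 h, higher in 5 of 5 lines at each step. Its log2 change was 0.46 ± 0.11 at 4 h (SE, n = 5 lines; adjusted p = 0.0715 by edgeR, 9.1e-06 with the block) and 1.18 ± 0.11 at 24 h (4e-05), 2.26-fold higher. In the inducible lines Wnt4 rose from 61.2 ± 9.14 to 131 ± 21.2 CPM (SD, n = 3 lines) and in the negative lines from 66.8 ± 4.82 to 160 ± 17.1 CPM (SD, n = 2 lines) by 24 h. Wnt7b rose from 273 to 356 CPM at 0 h to 362 to 450 CPM at 24 h, by 0.43 ± 0.091 on the log2 scale (adjusted p = 0.00794 by edgeR). The rare Wnt10a rose by 1.46 ± 0.32 (0.00832), and the rare Wnt2b changed by -1.16 ± 0.32 (0.0262). Summed duct markers were also higher at 24 h, at 14239 to 16778 TPM against 10171 to 13442 TPM at 0 and 4 h, and intestinal and gastric markers at 168 to 188 TPM against 126 to 165 TPM; their part in these changes was not tested.

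The remaining calls at 24 h were small or fragile. Wls rose by 0.19 ± 0.05 (SE, n = 5 lines; adjusted p = 0.0207 by edgeR), the receptor Fzd7 by 0.33 ± 0.075 (0.0105) and Bcl9, which ties β-catenin to its activators, by 0.38 ± 0.11 (0.0283). In mean TPM, Bcl9 rose from 1.61 at 0 h to 2.01 at 24 h in the inducible lines. In the negative lines its mean TPM fell from 2.06 to 1.66. Fzd5 changed by -0.17 ± 0.044 on the log2 scale (0.0195 by edgeR) and Fzd8 by -0.39 ± 0.11 (0.0277). Leaving out 1 library ended calls for 1 of 10 libraries for Fzd7 (A218 at 0 h, adjusted p = 0.0603), 2 for Fzd5 (A223 at 0 and 24 h, up to 0.0853), 3 for Wls (A218 at 24 h, A220 at 0 h and A223 at 0 h, up to 0.103) and 5 for Fzd8 (A218 and A223 at 0 and 24 h and A225 at 0 h, up to 0.103). For Wnt2b it ended them for 4 (A217 and A223 at 0 h, A218 and A223 at 24 h, up to 0.116). The Bcl9 call held only without A217 at 24 h, A220 at 0 h or A225 at 24 h (up to 0.111 otherwise), and that of Myc only without A217 at 0 h, A218 at 0 h, A220 at 24 h or A225 at 0 h (up to 0.202 otherwise). Without a filter on low counts the calls of Fzd8, Bcl9 and Myc were lost as well, with adjusted p of 0.0519, 0.0665 and 0.0518 by edgeR. Fitting only the groups compared ended those of Bcl9 (0.0623) and Myc (0.058). With the block, 18 of the 75 were higher and 12 lower, beside 36.1% of all features, a share near the background.

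**Figure D4:**
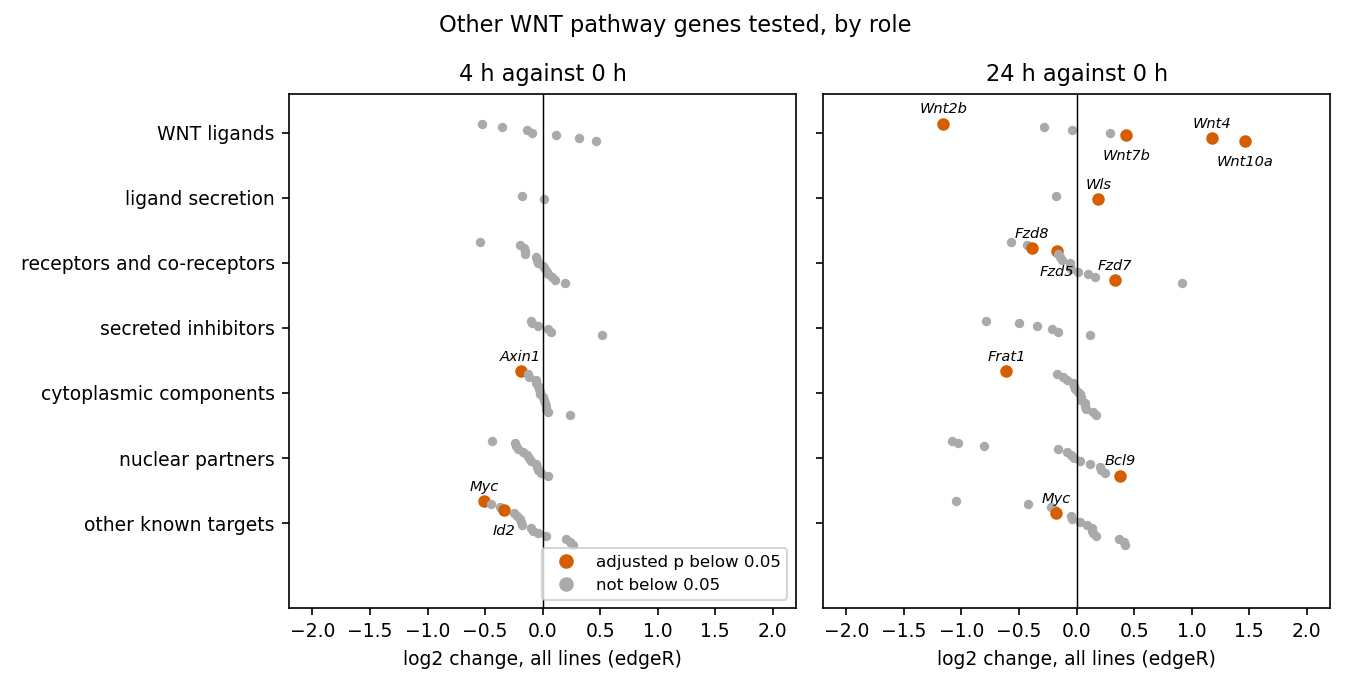
Log2 change over all lines (edgeR) of the 75 other WNT pathway genes tested, 1 point per gene, in rows by role, for 4 h and 24 h against 0 h, in orange and named where the adjusted p was below 0.05. At 4 h the called genes Myc, Id2 and Axin1 lie left of 0, and at 24 h 6 called genes lie right of 0 (Wnt4, Wnt7b, Wnt10a, Wls, Fzd7 and Bcl9) and 5 left of it (Wnt2b, Fzd5, Fzd8, Frat1 and Myc).

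The genes of most similar pattern were sought for Axin2 and Lgr5 among the 12220 genes whose mean reached 1 CPM, by Pearson's r of log2 CPM over the 15 libraries after centring each line. Closest to Axin2 were Xpc (r = 0.95), Mapk15 (0.89), Ino80b (0.88), Eif2b2 (0.88) and Ddt (0.88). Closest to Lgr5 were Golm1 (0.92), Olfr1023 (0.87), Snrnp35 (0.87), Erbb3 (0.86) and Sf3b2 (0.86). No member and no gene of the pathway lists was among these 10. The values describe 15 libraries of 5 lines that share depth and scaling, they are the highest of 12220, and no test was made.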

How the data were processed

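Total RNA of 15 organoid cultures was depleted of ribosomal RNA and sequenced in pairs, per the labels' protocols. The authors' deposited tables give estimated counts and TPM (transcripts per 1000000) for 109304 transcripts per library, per the file headers. The submitters' processing notes name kallisto 0.43.1, DESeq2 1.18.1, DESeq and GRCm38. The annotation release and strand setting are not given in the sources used here. Overlapping antisense genes therefore cannot be told apart. Gm11670, antisense to Axin2 and absent from the files, shares 149 of the 5496 words of 31 bases of Axin2. Its reads may have been counted for Axin2.

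Transcripts were joined to genes through GENCODE M21; 1295 were unmatched and stayed out. Estimated counts were summed per gene and rounded. Features passing edgeR's filterByExpr (16446) were scaled by TMM and fitted with edgeR 4.0.16 (R 4.3.3) as 6 group means over all 15 libraries, using the quasi-likelihood F test with Benjamini-Hochberg adjustment over all 16446 and a threshold of 0.05. Log2 changes over all lines weight both genotypes equally. The printed SE are from this fit of 6 group means, apart from that of Lgr4 for 24 h against 4 h. The fit does not pair the libraries of a line, so these SE are not the spread of the lines' changes, and n counts lines. Printed CPM are scaled by TMM. Members, lists and named genes were chosen with earlier results of these data known; pathway genes were named if called over all lines or highest in their role. Lines were sampled at each time, and deviations from group means correlated within a line (0.381 to 0.477 over 9 pairs of inducible libraries, 0.238 to 0.285 over 6 pairs of negative ones). The deviations of A218 and A223 mirror each other, so both negative lines give the same values. A further fit took each line as a replicate block, which allows for this correlation. Alternatives were DESeq2 1.42.0, its size factors, other filters, only the groups compared, and each library left out.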

Additional observations from a re-analysis of the deposited data

How the results depend on the processing

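No result changed direction while called. Of 1810 values for members under alternatives, 1707 kept their side of the threshold, 73 passed it only under the alternative and 30 lost it; 156 values that were not called changed sign. A further 10 had an adjusted p of NA by DESeq2 and were left out. With the line as a replicate block, features called in inducible lines numbered 502 at 4 h and 3993 at 24 h, those in negative lines 338 and 3694, with 1428 and 5937 over all lines, 6097 for 24 h against 4 h and 4 for the difference of responses at 24 h. Members called with the block numbered 2 and 1 in inducible lines, 1 and 2 in negative lines, and 3 and 4 over all lines; beyond the calls given in the report, the block changed no other call of a member. The genotypes at 0 h could not take the block, since each line has 1 genotype. DESeq2 called 150 and 1785 features in inducible lines, 96 and 1461 in negative lines, 550 at 4 h over all lines, 5 and 4 for the differences of responses and 6 between genotypes at 0 h; it called 2 members at 4 h over all lines, and 1 at each time in inducible lines. Fitting only the groups compared gave 20 and 65 features in inducible lines, 1734 at 24 h in negative lines and 0 members at 4 h over all lines, where Znrf3 was the call lost. A filter of 1 CPM in 3 libraries gave 1 member at 24 h in inducible lines, among 1001 features called.

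Leaving out 1 library at a time, features called of the inducible lines ranged from 20 to 35 at 4 h and 220 to 2002 at 24 h (49 and 811 with all), from 2 to 9 and 54 to 129 in negative lines (20 and 625), from 47 to 119 and 1534 to 3738 over all lines (150 and 3082), from 1610 to 3737 for 24 h against 4 h (3209), from 1 to 2 for each difference of responses and from 0 to 1 between genotypes. Members called ranged from 0 to 1 at 4 h and 1 to 2 at 24 h over all lines, 0 to 1 at 24 h in inducible lines, 0 to 0 at 24 h in negative lines and 1 to 5 for 24 h against 4 h. The order of levels in CPM per length is tied to that in TPM and is no separate check of it. Depth limits Nkd1 and Ascl2, and 2 negative lines limit every comparison within that genotype.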
